A study of Mus musculus with 54 samples.

Results

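The genes described here are 9 members of the mouse matrix metalloproteinase system: the proteinase genes Mmp3, Mmp9, Mmp11, Mmp12, Mmp13 and Mmp14, and the inhibitor genes Timp1, Timp2 and Timp3. They were taken by symbol, as every probe set of the array annotated to exactly 1 of these symbols, and they make up 9 of the 8251 genes that the array names in this way. The 9 genes had 14 probe sets, of which 10 were bright enough to be tested, and each gene had at least 1 of those. RNA was measured on 1-channel Affymetrix arrays in 54 mammary glands, with 3 mice at each of 18 time points. Each array held RNA from 1 inguinal gland of 1 mouse, taken without its lymph node. Virgin mice were taken at 6, 10 and 12 weeks. Pregnant mice were taken on days 1, 2, 3, 8.5, 12.5, 14.5 and 17.5, lactating mice on days 1, 3 and 7, and mice in involution on days 1, 2, 3, 4 and 20. Mating took place at an age of 12 weeks, and the plug marked day 0.5. Lactating mice lost their pups after 7 days, so involution here is forced weaning. The sources used here give no strain, genotype or drug for any group. Values are signals scaled to a common level on each array, and log2 differences were computed after signals under 9.4, the floor, were raised to it. Calls were made where the adjusted p was below 0.05.

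Matrix metalloproteinases are zinc enzymes, secreted or bound to the cell surface, that cut collagens, laminins and other matrix proteins. TIMPs bind their active sites and block them, so the balance between enzyme and inhibitor sets how much matrix is cut. In the mammary gland they are known from ductal growth into the fat pad and from the breakdown of basement membrane when alveoli regress after weaning. Much of their production comes from stromal fibroblasts and from macrophages, rather than from the milk-making epithelium.

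Mmp13, Mmp12 and Mmp3 are neighbours. In the RefSeq gene order the interval from Mmp13 to Mmp3 on chromosome 9 held 4 genes, in the order Mmp13, Mmp12, Mmp1b and Mmp3. RefSeq promoter windows (build GRCm38.p6, 250 bases before to 50 after a start) were found for 8 of the 9 members, and there was none for Mmp9 in the table used. Both strands of each window were searched for TGAGTCA, the consensus motif of AP-1 (the Fos and Jun factors), and for TATAAA, the TATA motif. The 250 bases before the start are shown for the 3 neighbours because they are the members whose windows held both motifs, and because Mmp3 and Mmp12 had the 2 largest rises after weaning. Capitals mark the AP-1 match and, where it lies before the start, the TATA match. All 3 genes lie on the plus strand, at chr9:7272264-7272513 for Mmp13, chr9:7347124-7347373 for Mmp12 and chr9:7445572-7445821 for Mmp3.
Mmp13: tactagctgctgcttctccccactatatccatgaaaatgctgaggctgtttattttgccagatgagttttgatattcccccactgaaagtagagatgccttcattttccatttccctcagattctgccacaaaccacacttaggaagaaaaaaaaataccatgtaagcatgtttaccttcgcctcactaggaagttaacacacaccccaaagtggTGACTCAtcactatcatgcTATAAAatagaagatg
Mmp12: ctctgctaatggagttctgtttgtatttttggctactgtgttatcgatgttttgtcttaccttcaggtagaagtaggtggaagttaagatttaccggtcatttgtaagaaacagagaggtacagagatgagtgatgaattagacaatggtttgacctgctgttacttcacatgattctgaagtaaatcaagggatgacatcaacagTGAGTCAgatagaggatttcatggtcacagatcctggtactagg
Mmp3: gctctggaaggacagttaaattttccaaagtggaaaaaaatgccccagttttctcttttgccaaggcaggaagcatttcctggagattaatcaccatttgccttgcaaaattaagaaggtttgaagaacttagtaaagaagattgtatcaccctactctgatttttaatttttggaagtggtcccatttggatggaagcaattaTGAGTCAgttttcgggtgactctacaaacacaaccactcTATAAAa

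The AP-1 match lay at bases -35 to -29 in Mmp13, where it reads TGACTCA because it is on the minus strand. It lay at bases -44 to -38 in the second of the 2 Mmp12 windows and at bases -46 to -40 in Mmp3. The TATA match lay at bases -16 to -11 in Mmp13 and -7 to -2 in Mmp3. In Mmp12 it lay at bases 5 to 10, past the stretch shown. The motif matches did not overlap each other. None of the windows of Mmp11, Mmp14, Timp1, Timp2 and Timp3 held either motif, nor did the first Mmp12 window. Over all 32851 promoter windows of the table, 5.2% held TGAGTCA, 13.6% held TATAAA and 0.941% held both. These matches describe letters in a window and do not show binding.

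**Figure D1:**
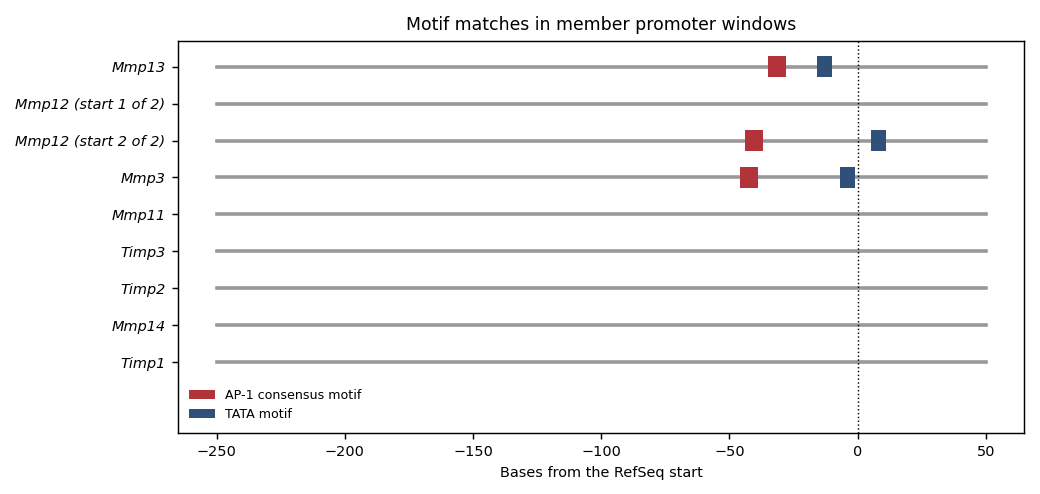
Motif matches in the promoter windows of the members. The x axis gives bases from the RefSeq start, each grey line is 1 window, red blocks are TGAGTCA on either strand and blue blocks are TATAAA. The red blocks stand between bases -46 and -29, in Mmp13, 1 window of Mmp12 and Mmp3.

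Some features of the arrays bear on which comparisons can be read. Replicate arrays had correlations of 0.875 to 0.975 over probe sets, and 37 of 54 arrays were closest to an array of their own time point. The signal of Arl2bp, chosen after its values were seen, fell into separate ranges of 63.2 to 108.8 and 410.6 to 804.0. All virgin mice and all mice of pregnancy days 1 to 3 were in the high range, and all mice of pregnancy days 12.5 and 14.5, lactation day 7 and involution days 1, 2, 4 and 20 were in the low range. Involution day 3 had 2 mice in the high range and 1 in the low. A comparison of virgin week 12 with lactation day 7 or involution day 20 therefore runs entirely along this split, while comparisons of involution days 1, 2 and 4 with lactation day 7 do not. The signal of Glo1, also used as a covariate, was 379.6 to 393.1 at virgin week 12. It was 198.7 to 227.6 on pregnancy days 1 and 2, and 207.2, 335.8 and 162.3 on day 3. Comparisons of these days with virgin week 12 thus run along a difference in Glo1. The beta-actin 3' to 5' ratio, a measure of RNA integrity on these arrays, was 3.35 to 4.05 at virgin week 6 and 1.43 to 2.35 at virgin week 12. At virgin week 10, mouse C gave a Csn2 (beta-casein) signal of 16.5 where mice A and B gave 1065.3 and 702.2. No comparison set that time point against another. It did enter the estimate of spread, the test over all time points, the order of means and the correlations over time points.

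All 9 genes differed among the 18 time points by the limma F test, where 88.1% of all probe sets did. The time point of the highest mean was not shared. Mmp3, Mmp11, Mmp12 and Mmp13 were highest at involution day 4, Mmp9 and Mmp14 at pregnancy day 3, Timp1 at involution day 1, Timp2 at involution day 2 and Timp3 at virgin week 10. Adjacent time points in the order of a gene's means mostly overlapped. Of the 17 steps from the highest mean to the lowest, the arrays did not overlap at 3 steps for Mmp3, 2 for Mmp12, 1 each for Mmp9, Mmp14, Timp1 and Timp3, and 0 for Mmp11, Mmp13 and Timp2. Such steps were not counted over all probe sets, so these counts have no background beside them.

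**Figure D2:**
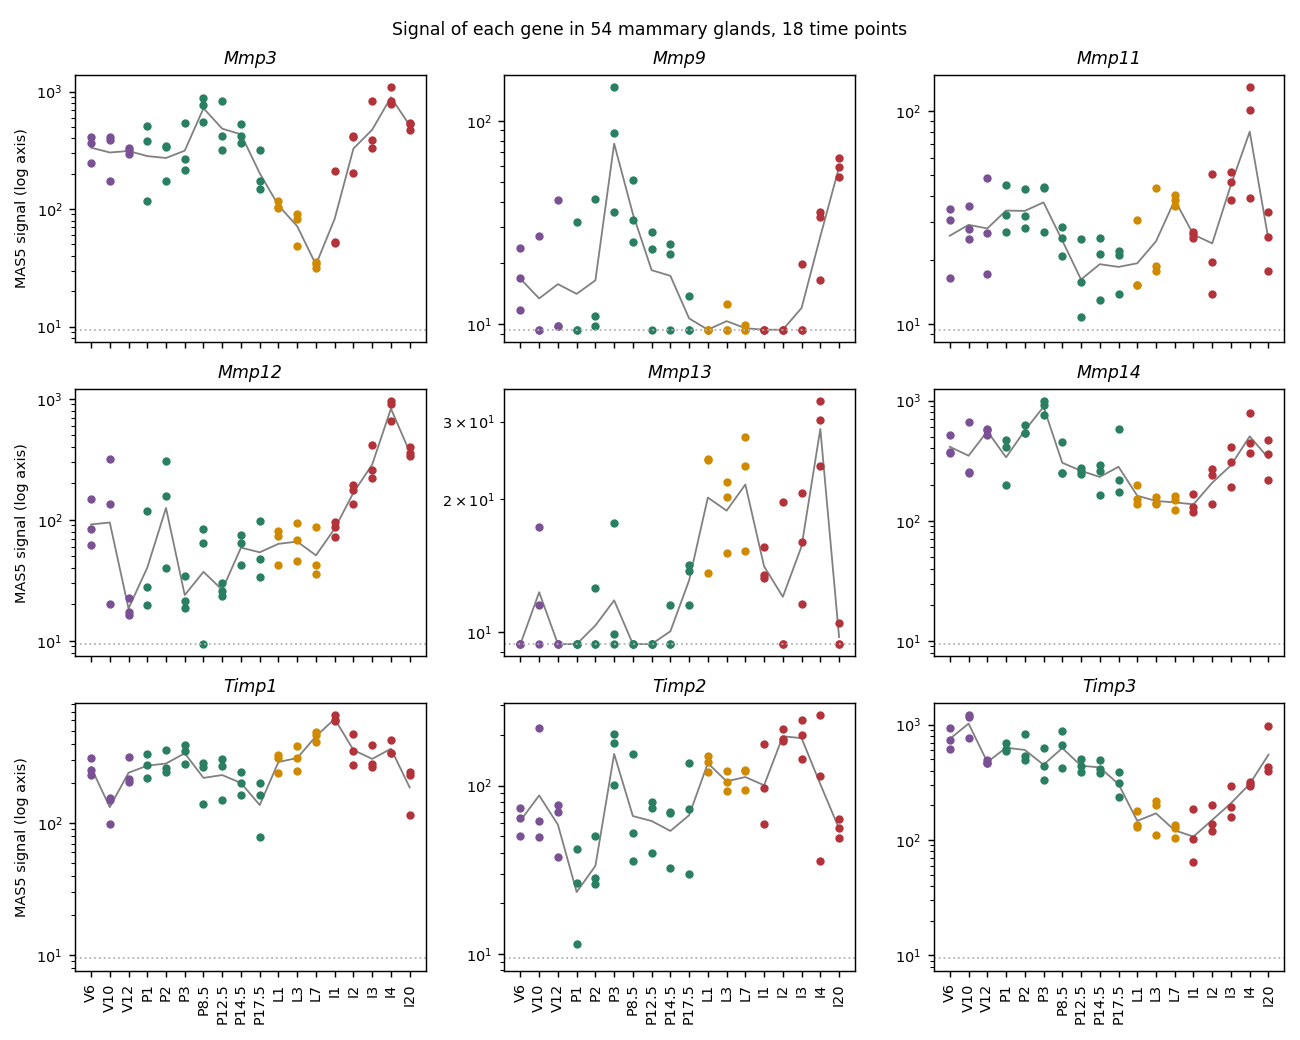
Signal of the 9 genes over the cycle. The x axis gives virgin weeks (V), pregnancy (P), lactation (L) and involution (I) days, the y axis the signal on a log scale, each point is 1 mouse, grey lines join geometric means and the dotted line is the floor of 9.4. Mmp3 falls to 31.3 to 35.7 at lactation day 7 and reaches 785.5 to 1103.1 at involution day 4, and Timp1 is highest at involution day 1, at 596.7 to 655.1.

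Mmp3 encodes stromelysin-1, which cuts laminin, fibronectin and type IV collagen and activates other MMPs. The probe set 98833_at gave 249.3, 363.0 and 411.0 in the virgin week 6 mice and 293.3, 315.9 and 329.7 in the week 12 mice. At pregnancy day 8.5 it gave 777.0, 553.6 and 876.4, the highest mean of pregnancy at 722. These 3 mice all lay above the virgin week 6 and week 12 mice, at a time point picked for its mean. Of them, 2 were in the low Arl2bp range, while all virgin mice were in the high range. Days 8.5 and 12.5 together were 1.89-fold above virgin week 12, with overlapping mice, and missed the threshold (adjusted p = 0.088). The Mmp3 mean then dropped through 202 at pregnancy day 17.5, 108 at lactation day 1 and 71.5 at lactation day 3. At lactation day 7 the mice gave 31.3, 35.7 and 34.1. That was 9.29-fold lower than at virgin week 12 (log2 difference -3.22 ± 0.45 SE, adjusted p = 1.1e-07) and 17.6-fold lower than in mid pregnancy, days 8.5 and 12.5 together (adjusted p = 5.3e-12). Both falls in Mmp3 stayed called with Glo1 and Arl2bp as covariates. For the fall from virgin week 12 that fit cannot separate time point from Arl2bp range, since these mice shared no range.

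After pup removal Mmp3 gave 211.7, 52.1 and 51.5 on involution day 1, so 1 mouse of the 3 stood well above the others. The mice gave 416.7, 413.1 and 204.9 on day 2, 838.3, 385.0 and 330.6 on day 3, and 1103.1, 785.5 and 830.0 on day 4. All day 2 mice exceeded all lactation day 7 mice. Against lactation day 7 the rise was 9.75-fold on day 2 (adjusted p = 2.3e-07), 14.1-fold on day 3 (adjusted p = 7.9e-09) and 26.6-fold on day 4 (log2 difference 4.74 ± 0.45 SE, adjusted p = 1.8e-11). The day 1 rise of 2.46-fold (adjusted p = 0.029) rested on mouse A: without it the log2 difference was 0.62 with an adjusted p of 0.4. Leaving out any of the lactation day 7 mice also ended the day 1 call.

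Mmp12 encodes macrophage elastase, which cuts elastin and is made mainly by macrophages. The probe set 95339_r_at was variable among young and early pregnant mice. It gave 148.5, 83.8 and 61.8 at virgin week 6 and 22.5, 16.3 and 17.3 at week 12, and the pregnancy day 2 mice spanned 40.3 to 308.1. The week 12 mice lay below all week 6 mice, 4.95-fold lower on average (log2 difference -2.31 ± 0.68 SE, adjusted p = 0.0099). That call was lost without virgin week 6 mouse A (adjusted p = 0.062) and when the beta-actin ratio entered the fit (log2 difference -1.10, adjusted p = 0.33).

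Mmp12 gave 35.6, 87.5 and 42.3 at lactation day 7 and 71.7, 87.2 and 96.7 on involution day 1. It gave 178.0, 195.6 and 135.7 on day 2, 416.6, 256.0 and 219.8 on day 3, and 659.2, 958.1 and 904.3 on day 4. From day 2 on every involution mouse exceeded every lactation day 7 mouse. The rise over lactation day 7 was 5.62-fold on day 3 (adjusted p = 0.0034) and 16.3-fold on day 4 (log2 difference 4.03 ± 0.68 SE, adjusted p = 4.9e-06). On day 2 it was 3.30-fold (adjusted p = 0.047), a call lost when any of 5 of the 6 arrays compared was left out, with adjusted p up to 0.15 without lactation day 7 mouse A. A second tested probe set of Mmp12, 95338_s_at, rose 9.17-fold by day 4 (adjusted p = 5.3e-05) and 2.93-fold by day 3 (adjusted p = 0.048). On day 2 it was 1.62-fold above lactation day 7 with overlapping mice (adjusted p = 0.42), and so did not share the day 2 call. At lactation day 7 it was 3.05-fold above virgin week 12 (adjusted p = 0.029), where 95339_r_at missed the threshold (adjusted p = 0.067). The 18 time point means of the 2 probe sets correlated at r = 0.969.

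At involution day 20, Mmp12 was higher than at virgin week 12, the age at mating and its lowest mean of the 18. Its means at virgin weeks 6 and 10 were 91.6 and 95.1, and the highest week 10 mouse gave 320.4. The day 20 mice gave 338.0, 399.7 and 356.0, against 16.3 to 22.5 at virgin week 12, which was 19.6-fold higher (log2 difference 4.30 ± 0.68 SE, adjusted p = 2.5e-05). The second probe set was 10.1-fold higher (adjusted p = 0.00047). The first remained called without any 1 array and under all 12 alternative settings, with an adjusted p of at most 0.028. Every day 20 mouse was in the low Arl2bp range and every week 12 mouse in the high range, so the 2 differences cannot be told apart. That adjusted p of 0.028 came from the fit with Glo1 and Arl2bp as covariates. This fit cannot separate them either, since no mouse of these time points was in the range of the other.

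Mmp13 encodes collagenase-3, which cuts fibrillar collagens. Its probe set 100484_at was dim: 25 of 54 arrays were at or under the floor, among them all mice of virgin weeks 6 and 12 and of pregnancy days 8.5 and 12.5. It gave 24.5, 24.7 and 13.6 at lactation day 1 and 15.3, 23.8 and 27.7 at lactation day 7. At lactation day 7 it was at least 2.30-fold higher than at virgin week 12, computed against the floor (adjusted p = 0.00049). The call was lost with a floor of 22.8 (log2 difference 0.11, adjusted p = 0.24) and with Glo1 and Arl2bp as covariates (log2 difference 0.69, adjusted p = 0.4). The involution day 2 mice gave 9.4, 19.7 and 8.7, and this 1.80-fold fall from lactation day 7 (adjusted p = 0.019) was lost without involution day 2 mouse A (adjusted p = 0.12), without 3 other arrays and with the floor of 22.8 (adjusted p = 0.29). The mice gave 23.8, 33.4 and 30.3 on involution day 4 and 9.1, 10.5 and 9.1 on day 20, a 2.96-fold fall (adjusted p = 0.00012; 0.061 with no floor). None of the day 4 and day 20 mice overlapped.

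Mmp11 encodes stromelysin-3, a fibroblast product in many remodelling tissues. The probe set 100016_at gave 36.0, 38.3 and 40.3 at lactation day 7 and then 130.1, 100.6 and 39.1 on involution day 4, where mouse C stayed at the lactation level. The 2.10-fold rise (adjusted p = 0.037) was lost without involution day 4 mouse A (log2 difference 0.72, adjusted p = 0.23) and without 4 other arrays. The 12 mice of involution days 1 to 4 gave a firmer contrast: days 3 and 4 were 2.40-fold above days 1 and 2 (log2 difference 1.26 ± 0.30 SE, adjusted p = 0.0024), without loss of the call when any array was left out. By involution day 20 the mice gave 33.7, 25.7 and 17.8, 3.21-fold below day 4 (adjusted p = 0.0046; 0.054 without involution day 4 mouse A).

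Mmp9 encodes gelatinase B, which cuts denatured collagen and type IV collagen and is stored in neutrophils as well as made by macrophages. Its probe set 99957_at was at or under the floor on 23 of 54 arrays, including all mice of lactation day 1 and involution days 1 and 2. The mice gave 87.4, 147.1 and 35.8 at pregnancy day 3, against 40.7, 9.8 and 9.8 at virgin week 12, so the groups overlapped. The difference of 4.90-fold (adjusted p = 0.0092) was lost without pregnancy day 3 mouse B (adjusted p = 0.093), without virgin week 12 mouse B or C, and with no floor (adjusted p = 0.088). On involution day 4 the mice gave 35.6, 33.6 and 16.5 against 5.0, 5.9 and 9.9 at lactation day 7, with no overlap. Since 2 of the 3 lactation mice were at or under the floor, the 2.83-fold rise (adjusted p = 0.021) depends on where the floor is set. With a floor of 22.8 the log2 difference was 0.40 with an adjusted p of 0.23. The call was also lost without involution day 4 mouse A (log2 difference 1.30, adjusted p = 0.083) or mouse B. At involution day 20 the mice gave 59.1, 53.1 and 66.0, 3.76-fold above virgin week 12 (adjusted p = 0.038), a call lost without any of 5 of the 6 arrays compared and with an adjusted p of up to 0.22.

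Mmp14 encodes MT1-MMP, a membrane-anchored collagenase that also activates pro-MMP2 together with TIMP2. The probe set 160118_at was measured above the floor on all arrays. It gave 572.7, 576.9 and 521.0 at virgin week 12 and 763.5, 929.4 and 992.6 at pregnancy day 3, without overlap, but the difference of 1.60-fold missed the threshold (adjusted p = 0.32). Between these time points 28.2% of all probe sets had no overlap, in either direction. The mice of pregnancy days 8.5 and 12.5 lay between 246.7 and 454.8, all below the week 12 mice, 1.98-fold lower (adjusted p = 0.022; 0.083 without virgin week 12 mouse B, and 0.14 when the beta-actin ratio entered the fit). Lactation day 7 mice gave 122.1, 147.7 and 160.2, 3.91-fold below week 12 (log2 difference -1.97 ± 0.36 SE, adjusted p = 1.5e-05, and -1.86 ± 0.75 SE, adjusted p = 0.067, with Glo1 and Arl2bp as covariates).

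On involution day 1 Mmp14 was within 1.04-fold of this level, at 117.5, 167.0 and 131.1 (adjusted p = 0.94). It gave 408.3, 192.9 and 308.8 on day 3 and 792.9, 368.5 and 441.4 on day 4, all above the lactation day 7 mice. The rise over lactation day 7 was 3.55-fold on day 4 (log2 difference 1.83 ± 0.36 SE, adjusted p = 5.9e-05), a call kept under all alternative settings and without any array. The day 3 rise of 2.03-fold (adjusted p = 0.023) was lost without involution day 3 mouse A (log2 difference 0.78, adjusted p = 0.14) and without 2 other arrays.

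The inhibitors had their highest means at different time points. Timp1, a secreted inhibitor of most MMPs that is induced by cytokines, had its probe set 101464_at at 214.7, 318.1 and 204.8 at virgin week 12. The lactation day 7 mice gave 491.7, 464.9 and 412.4, all above those, 1.89-fold higher (log2 difference 0.92 ± 0.30 SE, adjusted p = 0.0092). With Glo1 and Arl2bp as covariates the log2 difference was 1.24 ± 0.61 SE (adjusted p = 0.14). Against mid pregnancy the lactation day 7 level was 2.02-fold higher (adjusted p = 0.00076), a call kept under all alternatives. On involution day 1 the mice gave 601.4, 596.7 and 655.1. All 3 lay above the lactation day 7 mice, but the difference of 1.36-fold missed the threshold (adjusted p = 0.3). The day 3 mice gave 265.3, 390.6 and 278.3, and none of involution days 1 to 4 passed the test against lactation day 7. From day 4 to day 20, where the mice gave 114.6, 231.4 and 244.1, the signal fell 1.97-fold (adjusted p = 0.02; 0.25 without involution day 20 mouse A).

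Timp2 is the inhibitor that forms the complex by which MT1-MMP activates pro-MMP2. The probe set 93507_at gave 121.8, 123.2 and 94.8 at lactation day 7, 185.4, 189.4 and 216.0 on involution day 2, and 246.0, 143.2 and 199.5 on day 3. Both involution days lay wholly above lactation day 7, yet differences of 1.75-fold and 1.70-fold missed the threshold (adjusted p = 0.27 and 0.29). Of all probe sets, 47.1% and 49.2% had no overlap in these comparisons, in either direction. On day 4 the mice gave 261.2, 35.8 and 113.6, spanning most of the range that the gene had over all time points. The spread among mice was among the widest of the members, with a median SD of 0.54 on the log2 scale against 0.36 for Timp3.

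Timp3 encodes an inhibitor that stays bound to the matrix and also blocks ADAM proteases. The probe set 160519_at gave 943.6, 729.1 and 621.1 at virgin week 6 and 467.4, 465.1 and 489.6 at week 12. These groups did not overlap, as for 50.2% of all probe sets in either direction, and the difference of 1.59-fold missed the threshold (adjusted p = 0.1). Lactation day 7 mice gave 127.1, 104.1 and 135.0, 3.91-fold below week 12 (log2 difference -1.97 ± 0.32 SE, adjusted p = 1.5e-06). The involution day 1 mice gave 186.3, 64.4 and 102.3 and the day 4 mice 292.6, 317.8 and 308.0. Day 4 was 2.52-fold above lactation day 7 (log2 difference 1.33 ± 0.32 SE, adjusted p = 0.00061), and both calls were kept under all alternatives and without any array. The day 3 rise of 1.72-fold (adjusted p = 0.048) was lost when any of 5 of the 6 arrays compared was left out, with an adjusted p of up to 0.26 without involution day 3 mouse B. At involution day 20 the mice gave 970.1, 431.5 and 394.9, a mean of 549 beside 474 at virgin week 12 (adjusted p = 0.79).

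The probe sets too dim to test were 1 of Mmp9 (162369_f_at), 1 of Timp1 (162107_r_at) and 2 of Timp2 (161515_i_at and 160116_at), and each lay at or under the floor on 48 to 52 of the 54 arrays.

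The pubertal, pregnancy and involution levels were then set against each other in windows fixed by time point: virgin week 6, pregnancy days 8.5 and 12.5 together, and involution days 3 and 4 together. Only Mmp3 had its highest mean of pregnancy inside the pregnancy window. Mmp9, Mmp11, Mmp14, Timp1 and Timp2 had theirs on pregnancy day 3, so the windows do not compare peaks for them. Between mid pregnancy and virgin week 6, 0 of 9 members passed limma's test, where 17.0% of all probe sets did, and 2 members (Mmp3 and Mmp12) had an unadjusted p under 0.05. Mmp3 was 1.77-fold higher in pregnancy (adjusted p = 0.15) and Mmp12 2.93-fold lower (adjusted p = 0.061). Between involution and virgin week 6, 6 of 9 passed, beside 55.7% of all probe sets. Mmp3, Mmp11, Mmp12, Mmp13 and Timp2 were higher and Timp3 lower.

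The involution window was highest for Mmp12 at 487 on average, against 91.6 at virgin week 6 and 31.3 in mid pregnancy. No mouse of the involution window overlapped the other windows, and the rise was 5.32-fold over virgin week 6 (adjusted p = 0.00064) and 15.6-fold over mid pregnancy (log2 difference 3.96 ± 0.48 SE, adjusted p = 7.8e-09). For Mmp11 the windows had means of 26.0, 20.0 and 60.0, and involution was 2.31-fold above virgin week 6 (adjusted p = 0.0053; 0.077 without virgin week 6 mouse C) and 3.00-fold above mid pregnancy (adjusted p = 3e-05). Mmp13 was at least 2.26-fold higher in involution than in either other window, computed against the floor (adjusted p = 0.00011 and 6.2e-06). Mmp3 had window means of 334, 591 and 652. Its involution level was 1.95-fold above virgin week 6 (adjusted p = 0.034; 0.17 without virgin week 6 mouse A) and within 1.10-fold of mid pregnancy (adjusted p = 0.73), with both sets of mice overlapping.

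Timp3 ran the other way, with window means of 753, 526 and 253. In involution it was 2.98-fold below virgin week 6 (log2 difference -1.58 ± 0.27 SE, adjusted p = 6.8e-06) and 2.08-fold below mid pregnancy (adjusted p = 0.00014), with no overlap in either case. Timp2 was 2.26-fold above virgin week 6 (adjusted p = 0.034) and 2.19-fold above mid pregnancy (adjusted p = 0.014). On pregnancy day 3, outside the windows, Timp2 gave 101.2 to 201.5 with a mean of 154, beside 140 in the involution window. When the beta-actin ratio entered the fit those Timp2 log2 differences came to 0.04 and 0.38 (adjusted p = 0.97 and 0.51), and without involution day 4 mouse A the adjusted p was 0.13 and 0.087. Timp1 was 1.49-fold above mid pregnancy (adjusted p = 0.022, and 0.11 without pregnancy day 8.5 mouse C). Its mean was 338.5 on pregnancy day 3, beside 335.2 in the involution window. Between involution and mid pregnancy 6 of 9 members passed, beside 50.8% of all probe sets. Mmp14 and Mmp9 passed in none of the 3 comparisons of windows. All virgin week 6 mice were in the high Arl2bp range, as were 2 of the 6 involution mice and 1 of the 6 pregnancy mice. With Glo1 and Arl2bp as covariates 0 of 9 members passed between involution and virgin week 6, where 6 had an adjusted p of 0.061 to 0.32. With and without the covariates the log2 difference was 1.14 and 0.97 for Mmp3, 1.74 and 1.21 for Mmp11, and 2.78 and 2.41 for Mmp12. It was 0.69 and 1.18 for Mmp13, 1.965 and 1.17 for Timp2, and -1.46 and -1.58 for Timp3. The SE was larger with the covariates, for Mmp12 1.21 against 0.59.

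**Figure D3:**
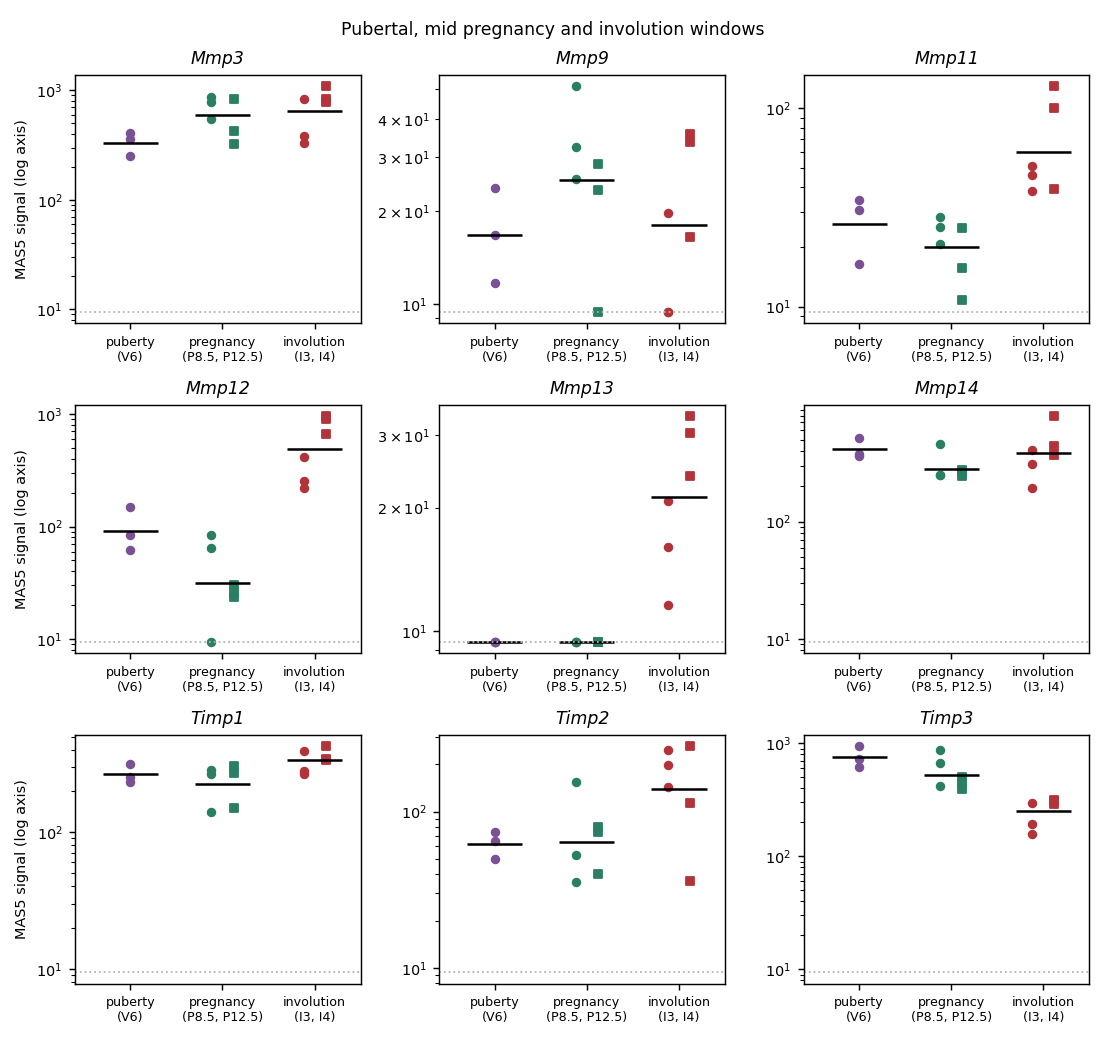
The 9 genes in the windows of puberty (V6), pregnancy (circles P8.5, squares P12.5) and involution (circles I3, squares I4). The y axis is the signal on a log scale, points are single mice, bars are geometric means and the dotted line is the floor of 9.4. Mmp12 stands at a mean of 487 in involution and 31.3 in mid pregnancy, while Timp3 stands at 253 and 526.

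Involution days 1 to 4 were each compared with lactation day 7. The 4 comparisons share the 3 lactation day 7 mice, so they are not independent of each other, and whether members differed in their timing was not tested. For each of Mmp3, Mmp9, Mmp11, Mmp12, Mmp14 and Timp3, the call on the earliest day that passed was lost when some 1 array was left out, as given above. On involution day 1, 1 of 9 members passed (Mmp3, higher), beside 25.4% of all probe sets. On day 2, 3 of 9 passed, with Mmp3 and Mmp12 higher and Mmp13 lower, beside 31.9%. On day 3, 4 of 9 passed, all higher (Mmp3, Mmp12, Mmp14 and Timp3), beside 36.0% in either direction and 19.1% higher. On day 4, 6 of 9 were higher and 0 lower, adding Mmp9 and Mmp11, beside 44.4% in either direction and 22.7% higher. The median log2 difference of the 9 members went from -0.06 on day 1 to 1.33 on day 4, while that of all probe sets was -0.02 and -0.03.

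Pooling days 3 and 4 against days 1 and 2 separated the later from the earlier phase of involution. Here 6 of 9 members were higher and 0 lower, beside 15.5% of all probe sets in either direction and 9.13% higher. Mmp12 was 4.09-fold higher with no overlap among its 12 mice (adjusted p = 0.0022), Mmp3 3.96-fold (adjusted p = 1.5e-05), Mmp14 2.27-fold (adjusted p = 0.00083) and Timp3 2.00-fold (adjusted p = 0.0012). Mmp13 was 1.63-fold higher (adjusted p = 0.012; 0.26 with no floor). Timp1 went from a mean of 470 to 335 (adjusted p = 0.11) and Timp2 from 141 to 140 (adjusted p = 0.99). Among the inhibitors, then, only Timp3 passed the test in this comparison.

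**Figure D4:**
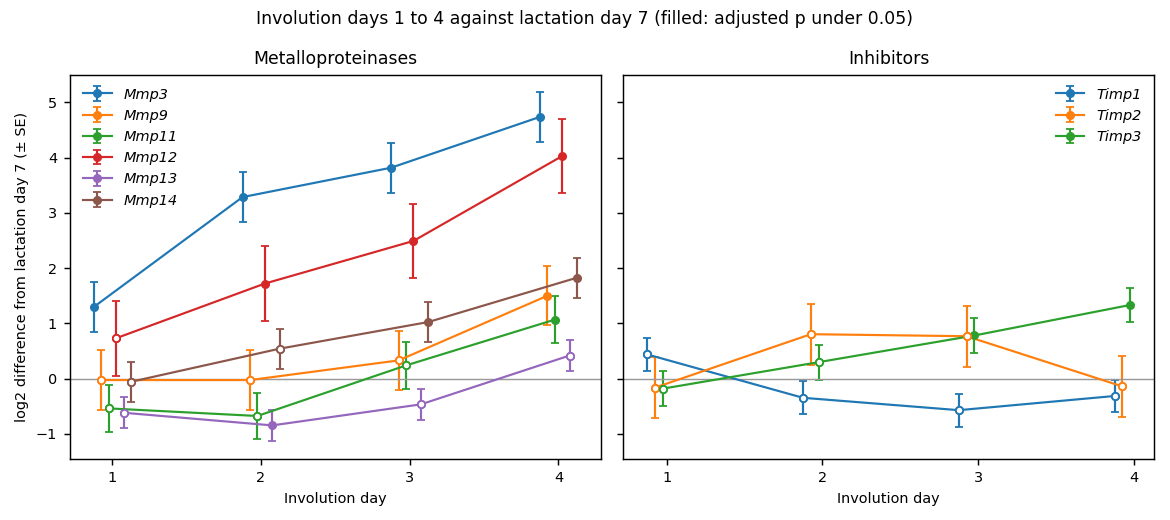
Log2 difference from lactation day 7 on involution days 1 to 4, with its SE, for the proteinases on the left and the inhibitors on the right. Points are shifted sideways within a day for legibility, filled points have an adjusted p under 0.05, and the grey line is no difference. Mmp3 goes from 1.30 to 4.74 and Mmp12 from 0.73 to 4.03, while Timp1 and Timp2 have no filled point.

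The remaining comparisons describe the way into lactation and back to rest. Lactation day 7 against virgin week 12 gave 5 of 9 calls, with Mmp13 and Timp1 higher and Mmp3, Mmp14 and Timp3 lower, beside 51.6% of all probe sets. With Glo1 and Arl2bp as covariates 2 of these remained, Mmp3 and Timp3, though that fit cannot separate these time points from the Arl2bp split. Lactation day 7 against mid pregnancy gave 7 of 9, with Mmp11, Mmp13 and Timp1 higher and Mmp3, Mmp9, Mmp14 and Timp3 lower, beside 65.1%, and the Mmp9 and Mmp13 calls were lost with a floor of 22.8 (adjusted p = 0.16 and 0.15). Pregnancy days 1 to 3 together against virgin week 12 gave 0 of 9 by limma, beside 1.18%, with 1 member (Mmp12) at an unadjusted p under 0.05. Pregnancy day 3 alone gave 1 of 9 (Mmp9), beside 4.24%, and mid pregnancy against virgin week 12 gave 1 of 9 (Mmp14, lower), beside 19.6%. Virgin week 12 against week 6 gave 1 of 9 (Mmp12, lower), beside 29.8%. Involution day 20 against virgin week 12 gave 2 of 9 (Mmp9 and Mmp12, both higher), beside 2.64% in either direction and 1.27% higher. Involution day 20 against day 4 gave 3 of 9 (Mmp11, Mmp13 and Timp1, all lower), beside 15.5%. The comparisons of pregnancy day 3 with virgin week 12, of lactation day 7 with mid pregnancy and of involution day 20 with day 4 were added after the values had been seen.

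Other genes of the same proteolytic system were read from fixed lists. Of 19 other MMP and inhibitor genes, 2 had a bright enough probe set, 6 were too dim (Mmp2, Mmp7, Mmp8, Mmp10, Mmp16 and Mmp24) and 11 had no probe set with exactly 1 symbol. The gelatinase Mmp2, the known substrate of MT1-MMP, could thus not be followed here. Reck, a membrane-anchored MMP inhibitor, was lower at lactation day 7 than at virgin week 12 (log2 difference -2.67 ± 0.50 SE, adjusted p = 1.9e-05) and rose by involution day 4 (1.86 ± 0.50 SE, adjusted p = 0.0022). Mmp17 passed neither test (adjusted p = 0.94 and 0.52).

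Of the plasminogen system, whose plasmin activates several pro-MMPs, 6 of 10 genes were tested. On involution day 4 against lactation day 7, 3 were higher and 1 lower, where 22.7% of all probe sets were higher and 21.7% lower. Plaur, the urokinase receptor, rose by 1.28 ± 0.44 (SE, log2, adjusted p = 0.016), and Plat, tissue plasminogen activator, by 0.74 ± 0.24 (adjusted p = 0.012). Plgrkt, a plasminogen receptor, rose by 1.31 ± 0.28 (adjusted p = 0.00018). Serpinf2, the plasmin inhibitor, fell (log2 difference -1.17 ± 0.29 SE, adjusted p = 0.001). Of 11 adamalysins, membrane and secreted relatives of the MMPs, 7 were tested, and 5 were higher and 0 lower on day 4, beside the same 22.7% and 21.7%. Adam19, at the floor in all lactation day 7 mice, rose by at least 2.53 (log2, against the floor, adjusted p = 3.9e-08) and Adam8, a leukocyte protease, by 2.41 ± 0.36 (adjusted p = 6.3e-07).

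The substrates include fibrillar and basement membrane collagens, laminins and elastin. Of 21 listed genes, 18 were tested. At lactation day 7 against virgin week 12, 14 were lower and 2 higher, with a median log2 difference of -1.57 beside -0.01 over all probe sets, of which 27.2% were lower. On involution day 4 against lactation day 7, 12 were higher and 0 lower, beside 22.7% of all probe sets higher, with a median of 0.94. Col1a2, a chain of type I collagen, rose by 3.19 ± 0.36 (SE, log2, adjusted p = 1.6e-09), and Eln, elastin, by 1.89 ± 0.38 (adjusted p = 6.9e-05). Col3a1, of type III collagen, rose by 2.91 ± 0.31 (adjusted p = 2.7e-10). Col1a1, the other chain of type I collagen, rose by 2.60 ± 0.27 (adjusted p = 2.7e-10). Of 17 listed regulators of MMP genes, 14 were tested, and 6 were higher and 2 lower on day 4. That is 8 of 14 called, where 44.4% of all probe sets were called. Fos, a partner in AP-1, rose by 2.10 ± 0.52 (SE, log2, adjusted p = 0.0011), Ets1 by 1.35 ± 0.34 (adjusted p = 0.0011), and Ets2 by 1.27 ± 0.22 (adjusted p = 1.1e-05). Etv4, a factor of the ETS family like Ets1 and Ets2, fell (log2 difference -0.98 ± 0.34 SE, adjusted p = 0.017).

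Marker genes of the cell types known to make these proteins moved over the same days. In whole glands, more cells of a type and more RNA per cell cannot be told apart. Of 10 macrophage markers 9 were measured, none of them at the floor in all 3 mice of any time point. On involution day 4 against lactation day 7, 8 of the 9 were higher and 1 (Fcgr3) lower, with a median log2 difference of 2.98, beside 22.7% of all probe sets higher. Csf1r, the receptor that macrophages need to survive, rose from a mean of 90.0 to 710 (adjusted p = 7e-13). The summed signal of the 9 was 1865.4 to 2205.1 at lactation day 7, 7973.3 to 9054.9 on involution day 1 and 9139.4 to 10249.9 on day 4. Most of the day 1 level was Cd14: the sum of the other 8, taken after the values were seen, was 598.9 to 728.2 at lactation day 7, 809.2 to 1155.3 on day 1, 1468.7 to 2443.2 on day 2, 2160.3 to 3356.4 on day 3 and 4829.1 to 5419.3 on day 4. It was 2320.2 to 2790.6 at virgin week 12 and 3053.7 to 3449.0 on involution day 20. This sum was thus lower at lactation day 7 than at virgin week 12, where Mmp12 did not fall. The Mmp12 means there were 50.9 and 18.5 (adjusted p = 0.067 by limma). The part of the macrophage markers in the rises of Mmp12 and Mmp3 was not tested.

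All 10 fibroblast markers were measured. On involution day 4 all 10 were higher than at lactation day 7, beside 22.7% of all probe sets higher, with a median log2 difference of 2.37. Their summed signal was 14100.9 to 16004.7 in the week 12 mice, 2073.4 to 2608.9 at lactation day 7 and 8542.9 to 11647.6 on involution day 4. Of 8 adipocyte markers 6 were measured, with sums of 9982.3 to 10572.5 in the week 12 mice, 1526.1 to 1861.0 at lactation day 7, 5817.8 to 7777.6 on involution day 4 and 9965.8 to 11777.4 on day 20. None of these markers was at the floor in all 3 mice of any time point. Mmp14 and Timp3 were lower at lactation day 7 than at virgin week 12 and higher again on involution day 4, as these sums were. At other stages Mmp14 and the fibroblast sum differed in course. Mmp14 had means of 413 at virgin week 6, 556 at week 12 and 281.5 in mid pregnancy. The fibroblast sum was 23070.6 to 24686.8 at virgin week 6, 14420.4 to 20142.7 on pregnancy day 8.5 and 12537.1 to 17576.8 on day 12.5. At virgin week 12, lactation day 7 and involution day 4, endothelial markers (7 of 7 measured) had sums of 910.7 to 1024.7, 358.4 to 438.1 and 579.3 to 792.5. Mast cell markers (4 of 7) had 1168.8 to 1317.9, 331.0 to 443.7 and 634.9 to 897.6. The part of any of these cell types in the differences of Mmp14 and Timp3 was not tested. Of 10 neutrophil markers 4 were bright enough, and S100a9, Ly6g, Mpo, Ngp, Cxcr2 and Mmp8 were too dim. The 4 summed to 319.5 to 705.3 at virgin week 12, 3682.3 to 3876.4 at lactation day 7, 6945.6 to 7734.2 on involution day 1 and 4741.7 to 6013.1 on day 4. Most of that was Ltf, lactoferrin, with a mean of 3572 at lactation day 7. On day 4 against lactation day 7, 22.7% of all probe sets were higher and 21.7% lower. Of the 4 neutrophil markers, 1 was higher (S100a8, log2 difference 1.43 ± 0.39 SE, adjusted p = 0.0029) and 1 lower (Elane, -0.82 ± 0.33 SE, adjusted p = 0.041). Their part in the course of Mmp9 was not tested.

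**Figure D5:**
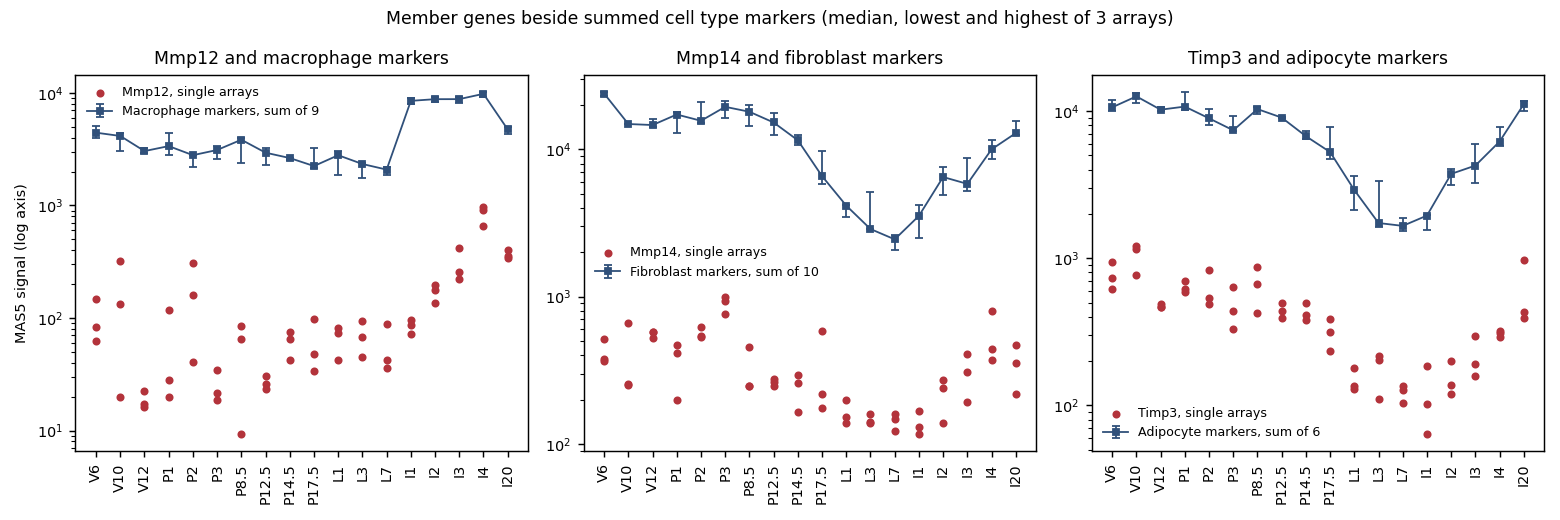
Mmp12, Mmp14 and Timp3 (red points, 1 per mouse) beside the summed signal of macrophage, fibroblast and adipocyte markers (blue squares, median of 3 mice with the lowest and highest as bars), over time points named as V weeks and P, L and I days, with a log y axis. The macrophage sum includes Cd14, which makes up most of its level at involution day 1. The fibroblast sum is 2073.4 to 2608.9 at lactation day 7, where Mmp14 is 122.1 to 160.2, and the adipocyte sum is 1526.1 to 1861.0, where Timp3 is 104.1 to 135.0.

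The genes whose 18 time point means ran most nearly parallel to each member are given as a description, since all points come from the same glands and share their cell makeup. For Mmp3 they were Tyrobp (r = 0.951) and Aif1 (r = 0.925), both known from macrophages, and Ifnar2 (r = 0.923). For Mmp12 they were Arg1 (r = 0.825), Tfr2 (r = 0.798) and Pkib (r = 0.796). For Mmp14 they were Akap8l (r = 0.945), Lrp1 (r = 0.942), an endocytic receptor that clears proteinases, and Pias1 (r = 0.924). For Timp3 they were Itih5 (r = 0.980), Ghr, the growth hormone receptor (r = 0.977), and Pparg, the adipocyte master regulator (r = 0.976). Mmp13 ran closest to Adcyap1r1 (r = 0.914), Slc7a7 (r = 0.870) and Pld3 (r = 0.827), and Timp2 to Swap70 and Rhoj (r = 0.877 each) and Cic (r = 0.869). Nearest to Timp1 were Zmat3 (r = 0.821), Ighd (r = 0.810) and Timeless (r = 0.789). Nearest to Mmp9 were Slc4a3 (r = 0.775), Crabp1 (r = 0.771) and Tnxb (r = 0.767), and nearest to Mmp11 were Il1rn (r = 0.777), Fcgr1 and Rasgrp2 (r = 0.761 each).

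Among the members themselves the 18 means of Mmp14 and Timp3 correlated at r = 0.701, those of Mmp9 and Mmp14 at 0.673 and those of Mmp3 and Timp3 at 0.633. Timp3 and Timp1 ran in opposite directions (r = -0.685), as did Timp3 and Mmp13 (r = -0.653) and Timp3 and Timp2 (r = -0.631). The pair of neighbours Mmp3 and Mmp12, both highest at involution day 4, correlated at r = 0.293 over the whole cycle, and Mmp3 and Mmp13 at r = -0.4. Mmp3 was at its lowest at lactation day 7, where Mmp13 was higher than at virgin week 12.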

How the data were processed

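The 54 arrays hold RNA from 1 gland of 1 mouse each. The deposited values are probe set intensities on a linear scale, computed by the authors with MAS5, per the submitters' processing notes. No MAS5 version is given in the sources used here. The 2% trimmed mean of each array was 100.05 to 100.07. Depth has no meaning for arrays, and their number, 3 per time point, limits the precision.

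Signals were raised to the floor of 9.4 (the 25th percentile of the table) and log2 transformed. After removal of 66 control probe sets, 8640 of 12422 were kept, those above 22.8 (the 40th percentile) in every array of some time point. A limma fit (version 3.58.1, R 4.3.3) covered the 54 arrays, estimating a mean for each time point with a trend of variance on intensity (36 residual df, median prior df 6.80). P-values are two-sided, with Benjamini-Hochberg adjustment over the 8640 probe sets of a comparison. The SE of a difference therefore rests on the spread within all 18 time points. Symbols came from the platform's annotation: 10833 probe sets had exactly 1, 396 had several and 1193 had none, and RefSeq changed 0 symbols. For a gene with several probe sets the one with the highest mean log2 signal leads. The fit was tested on simulated data. Tables were handled with Python 3.11.15, pandas 2.3.3 and numpy 2.4.6, and figures drawn with matplotlib 3.10.9.

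The members, windows and lists were chosen with earlier results of these data known. Named genes are the 9 members, the 3 genes most correlated with each over the 18 means, and up to 4 genes per list and comparison, called ones first. The letters A, B and C name mice and do not pair them: deviations from the time point mean correlated at 0.012 on average between mice of the same letter and at -0.0061 between others, so they did not deviate together. Identical arrays were looked for and 0 pairs were found. Alternatives were other floors, scalings and filters, 1 probe set per gene, only the arrays compared, no trend, array weights, the letter as a block, leaving out each array, and, added after the data were seen, the beta-actin ratio or the Glo1 and Arl2bp signals as covariates.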

Additional observations from a re-analysis of the deposited data

How the results depend on the processing

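Of 52 member differences called in the 16 comparisons, 0 reversed under any setting, and 23 stayed called under all 12 alternative settings and without any array. The 1 probe set per gene setting and the replicate block (letter A, B or C) changed none of the 52 calls; with the block the involution day 4 rise of Mmp3 had an adjusted p of 3e-11. Calls lost were 7 with no floor, 5 with the 40th percentile floor, 4 with quantile normalization, 6 with median scaling, 6 with no filter, 10 with only the arrays compared, 2 without the trend, 4 with array weights, 7 with the beta-actin ratio and 17 with Glo1 and Arl2bp as covariates; causes were not tested. Median scaling moved the median log2 difference of all probe sets by up to 0.21, in mid pregnancy against virgin week 12. The day 2 calls, 2 higher and 1 lower, were 2 and 0 with quantile normalization and 1 and 1 with median scaling. Counts of members called moved by over 1.5 times as follows. No floor gave 1 on involution day 2 against lactation day 7, 1 on involution day 20 against virgin week 12 and 0 on pregnancy day 3. Median scaling gave 2 in mid pregnancy against week 12, and no filter 1 on involution day 20. Only the arrays compared gave 2 for week 12 against week 6 and 2 for mid pregnancy against week 12. Array weights gave 2 and 3 there, 0 on involution day 1, 2 for mid pregnancy against week 6 and 2 on pregnancy day 3. The beta-actin ratio gave 0 for week 12 against week 6, 0 and 1 for mid pregnancy against week 12 and week 6, 2 on pregnancy day 3 and 1 on involution day 20. Glo1 and Arl2bp gave 0 for mid pregnancy and 2 for lactation day 7 against week 12, 0 on involution day 1, 2 on day 3 and 0 for days 3 and 4 against week 6. Leaving out 1 array gave 0 to 1 calls for week 12 against week 6, mid pregnancy against either virgin age, involution day 1 and pregnancy day 3, 1 to 3 on involution day 2, 2 to 4 on day 3 and 1 to 2 on day 20 against week 12. Mmp9 and Mmp13 were at or under the floor on 23 and 25 of 54 arrays, and the floor makes those arrays equal.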
